A study of Homo sapiens with 4 samples.

Results

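Lysosome and autophagy genes were followed in MCF10A cells, a non-tumorigenic line of human breast epithelium, with and without overexpression of HSF1, the transcription factor that drives the heat shock response. The genes were a fixed list of 36, 23 lysosomal and 13 autophagic, taken by gene symbol from the 63856 genes of the count table, and all 36 were found in it. They were not chosen by their response in a test, although the list was drawn up with earlier results of these data known. Of the 36, 34 passed the filter on low counts and were tested. The study sequenced total RNA after ribosomal RNA depletion from wild type (WT) cells (2 libraries) and from cells transduced with a lentiviral pLVX-Puro vector carrying the human HSF1 coding sequence and selected with puromycin (HSF1-pLVX, 2 libraries). Both variants were grown in DMEM/F12 medium with horse serum, insulin, hydrocortisone, EGF and cholera toxin, with no heat shock and no starvation named in the labels. No library of cells carrying the empty vector was analysed here, so HSF1, the vector and the puromycin selection cannot be told apart. The study's methods call the 2 libraries of a variant biological replicates, and the labels do not say how the cultures were separated.

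Lysosomes are acidic organelles in which hydrolases break down proteins, lipids, glycans and glycogen. The enzymes are made in the endoplasmic reticulum and carried through the Golgi by sorting receptors, a proton pump keeps the lumen acidic, and membrane proteins such as LAMP1 and LAMP2 shield the limiting membrane. In macroautophagy the ULK1 kinase and the Beclin 1 lipid kinase complex start a double membrane, ubiquitin-like conjugation attaches Atg8 proteins (the LC3 and GABARAP families) to its lipids, receptors bring the cargo, and the closed autophagosome fuses with a lysosome. TFEB and its relatives TFE3 and MITF bind the CLEAR element, an extended E-box in the promoters of many lysosomal genes, and TFEB is controlled largely through phosphorylation by mTORC1 at the lysosome surface rather than through its own transcript. HSF1 binds heat shock elements, inverted repeats of the unit GAA.

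The promoters were read from RefSeq windows on GRCh38.p14, from 250 bases before to 50 bases after each annotated gene start. Windows were found for 30 of the 36 genes (40 windows), 18 lysosomal and 12 autophagic, and none for CTSB, MANBA, UVRAG, LAMP2, PSAP and HEXA. The E-box core CACGTG, which reads the same on both strands, occurred in 6 of the 18 lysosomal genes (33.3%), CTSA, CTSD, GAA, LAMP1, MCOLN1 and NEU1, and in 0 of the 12 autophagy genes. It occurred in 7.26% of all 35116 windows. The longer form TCACGTGA, which contains that core, was present in 4 of the 18 (22.2%, against 0.980% of all windows), and the full CLEAR palindrome, which extends it by a further base on each side, in GAA and MCOLN1 (2 of 18, 11.1%, against 0.353%). A gene counts here if any of its windows holds the motif, so shares of genes and of windows are not strictly the same measure. Neither heat shock pair, GAANNTTC or TTCNNGAA, was found in a window of any of the 30 genes, while 6.77% and 7.74% of all windows held them. The bases before the start are printed for 3 of the lysosomal genes whose windows hold several E-box cores. Of these 3, MCOLN1 and GAA carry the full palindrome and LAMP1 has 5 cores before its start. CTSA, with cores that begin at -42 and -25 from its start, is not printed. For comparison the bases of WIPI1, the gene that changed most, are printed too, and they hold no core. All are written 5′ to 3′ on the strand of the gene, with the E-box core in capitals. LAMP1 is shown over 200 bases and the others over 100. The stretches lie at chr19:7522524-7522623 on the plus strand (MCOLN1), chr17:80101481-80101580 on the plus strand (GAA), chr13:113297039-113297238 on the plus strand (LAMP1) and chr17:68457497-68457596 on the minus strand (WIPI1). They are upstream of the RefSeq starts, and in the gene models used for counting 25 bases of the GAA stretch and 17 of the WIPI1 stretch fall in the first exon, with 0 for the others. A match is a description of the letters and not evidence that a factor binds.
MCOLN1: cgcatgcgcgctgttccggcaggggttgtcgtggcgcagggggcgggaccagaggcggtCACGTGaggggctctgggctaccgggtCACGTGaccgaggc
GAA: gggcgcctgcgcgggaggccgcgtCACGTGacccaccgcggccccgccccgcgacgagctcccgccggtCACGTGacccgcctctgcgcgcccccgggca
LAMP1: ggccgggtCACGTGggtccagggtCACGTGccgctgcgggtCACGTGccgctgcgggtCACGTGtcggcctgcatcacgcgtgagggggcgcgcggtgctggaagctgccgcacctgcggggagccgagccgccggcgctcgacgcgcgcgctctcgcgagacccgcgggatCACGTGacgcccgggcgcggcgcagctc
WIPI1: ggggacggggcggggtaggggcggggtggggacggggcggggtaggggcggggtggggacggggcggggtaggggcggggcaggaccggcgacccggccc

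The libraries held 18688109 to 24184285 counts each. HSF1 itself, the check of the labels, was at 200.4 and 189 CPM (a count scaled to its library's size after TMM normalisation) in WT cells and at 982 and 999 CPM in HSF1-pLVX cells, 5.08-fold higher (log2 2.35 ± 0.10 SE, edgeR quasi-likelihood test with Benjamini-Hochberg adjustment, adjusted p = 1.14e-10). These counts include transcripts of the construct. All 12 mammary epithelial markers were detected in every library, with a summed level of 22968 to 23654 CPM in WT cells and 11548 to 12074 CPM in HSF1-pLVX cells, and 8 of the 12 were lower and 4 higher by the same test. Of 9 monocyte and macrophage markers, genes of a lysosome-rich cell type, 6 stayed under 1 CPM in every library, and PTPRC, AIF1 and TYROBP had 0 counts throughout, although AIF1 could have lost its reads to copies on alternate contigs. The sum of these 9 lay between 22.6 and 27.3 CPM in WT and between 65.9 and 89.3 CPM in HSF1-pLVX cells, where CD14 and ITGAM were higher and CSF1R lower. Most of the rise was CD14, at a mean of 0.855 CPM in WT and 70.9 CPM in HSF1-pLVX cells. The summed fibroblast markers lay at 199 to 227 CPM in WT and 48.9 to 59.9 CPM in HSF1-pLVX cells, most of it FAP, which was lower. DCN of the same list was higher, from 4 counts over the WT libraries to 181 over the HSF1-pLVX libraries (ratio 37.6, exact 95% counting interval 14.4 to 139), and COL1A1 was not called. The summed endothelial markers lay at 2.10 to 3.14 CPM in WT and 13.4 to 14.6 CPM in HSF1-pLVX cells. Most of this was KDR, at a mean of 1.66 CPM in WT and 12.6 CPM in HSF1-pLVX cells, and 3 of the 5 markers stayed under 1 CPM in every library. The part of these shifts in the changes of the lysosome and autophagy genes was not tested.

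More lysosome and autophagy genes were down-regulated than up-regulated in HSF1-pLVX cells. Of the 34 tested genes, 19 were lower, 6 were higher and 9 did not pass the threshold (adjusted p of 0.05 over all 15830 genes tested). Over all genes tested 33.2% were called lower, 32.7% higher and 65.9% in either direction. The median log2 fold change (HSF1-pLVX over WT) was -0.30 for the 34 genes and 0.02 for all genes tested. Of the 34, 5 were lower by at least 2-fold (WIPI1, LIPA, GABARAPL1, MCOLN1 and MAP1LC3B), where 14% of all genes were, and 1 was higher by at least 2-fold (TPP1), where 14.9% of all genes were. At the 1.5-fold limit (log2 of 0.58) 10 were lower and 3 higher, against 22.8% and 23.9% of all genes. The CPM of the 2 WT and the 2 HSF1-pLVX libraries did not overlap for 28 of the 34 genes, where 83.1% of all genes tested did not overlap. With 2 libraries against 2, the smallest p an exact permutation test can give for a single gene is 0.33, so the calls rest on the spread shared across genes.

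**Figure D1:**
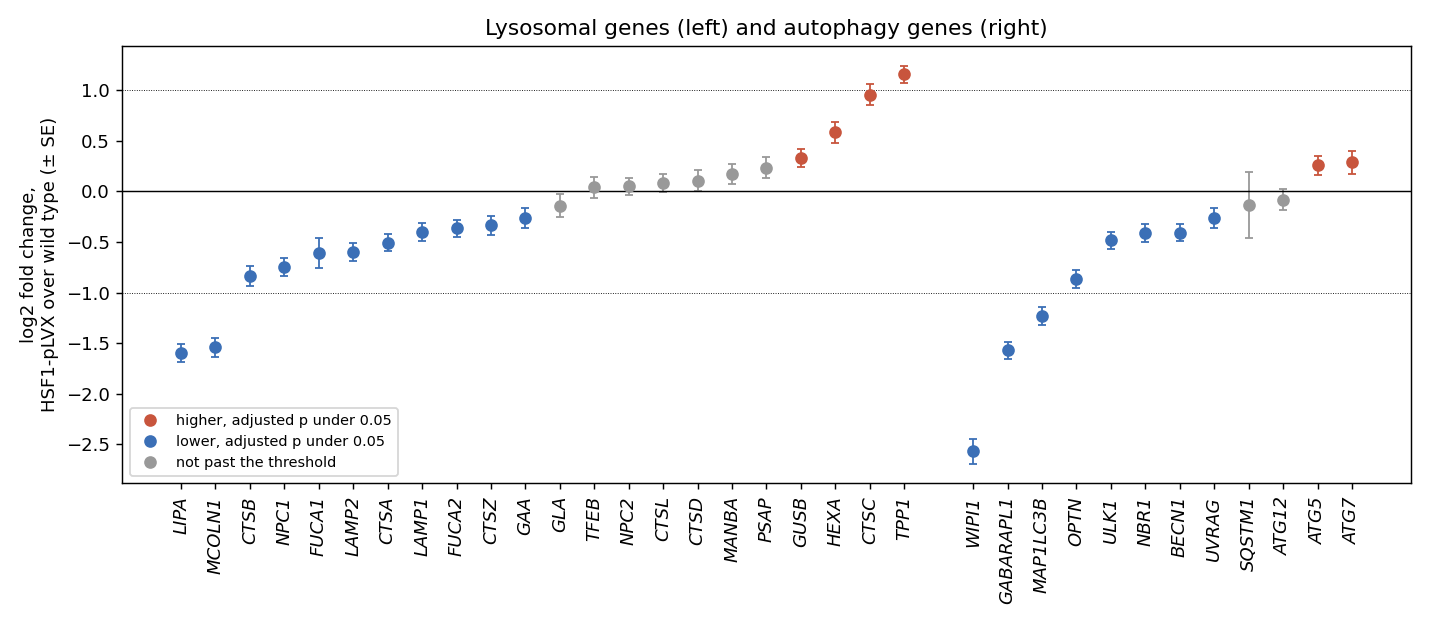
Log2 fold change of each tested lysosomal gene (left block) and autophagy gene (right block), HSF1-pLVX over WT, with the standard error of the edgeR fit as bars and dotted lines at 2-fold. Blue points were lower, red points higher and grey points not past the adjusted p of 0.05. WIPI1 is the lowest at -2.57 and TPP1 the highest at 1.16, and SQSTM1, with few counts, has the widest bar.

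Levels were compared between genes as CPM per kilobase of counted bases. Counted bases join all annotated exons of a gene, 11421 bases for CTSC and 2038 for CTSZ. The order of the genes therefore also depends on the annotation. In WT cells the genes of the soluble and membrane proteins that fill lysosomes stood highest, led by PSAP, the precursor of the saposins that help degrade sphingolipids, at 330 ± 13.0 (SD, n = 2) CPM per kilobase, followed by CTSD at 194 ± 22.3, CTSB at 155 ± 1.68, CTSZ at 122 ± 8.83 and LAMP1 at 75.1 ± 3.23. Among the autophagy genes OPTN was highest at 68.4 ± 0.499, before MAP1LC3B at 35.8 ± 1.321 and GABARAPL1 at 27.4 ± 0.227. PSAP and CTSD kept the first places in HSF1-pLVX cells, at 388 ± 19.7 and 209 ± 13.8 CPM per kilobase. CTSC moved from rank 16 to rank 7 of the 36 and TPP1 from 19 to 10, while LIPA moved from 7 to 15, GABARAPL1 from 12 to 19 and WIPI1 from 24 to 33.

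**Figure D2:**
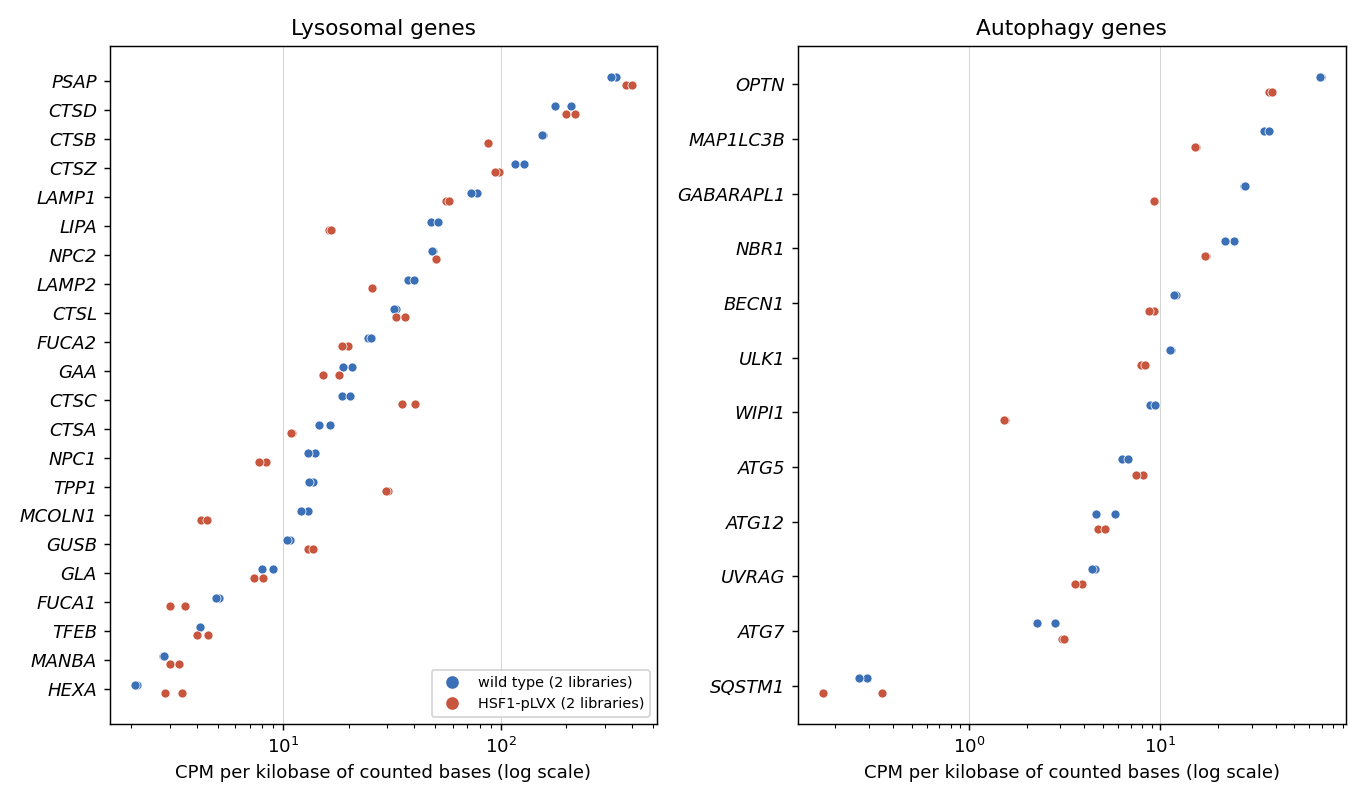
Level of each tested gene in each library, in CPM per kilobase of counted bases on a log axis, for lysosomal genes (left) and autophagy genes (right), ordered by the WT mean. Blue points are the 2 WT and red points the 2 HSF1-pLVX libraries, and the red points of LIPA, MCOLN1, WIPI1, GABARAPL1 and MAP1LC3B lie well to the left of the blue ones. SQSTM1, at the bottom of the right panel, stands under 1 CPM per kilobase in every library.

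Of the 15 tested genes for lysosomal enzymes, 7 were down-regulated (46.7%), 4 up-regulated (26.7%) and 4 not called, with a median log2 fold change of -0.14. Over all genes tested the shares were 33.2% and 32.7%. LIPA (chr10:89213569-89414557, minus strand), the acid lipase that frees cholesterol and fatty acids from lipoprotein lipids, was at 233 and 252 CPM in WT cells and at 79.2 and 81.4 CPM in HSF1-pLVX cells. Its groups were far apart, and the level was 3.02-fold lower (log2 -1.59 ± 0.09 SE, adjusted p = 1.75e-09). LIPA shares 1.3% of its counted bases with IFIT2 on the opposite strand, whose own counts were 3657 in both WT libraries and 1089 and 804 in the HSF1-pLVX libraries. TPP1 (chr11:6612763-6619461, minus strand), a peptidase that removes tripeptides from protein ends, moved the other way. Its CPM was 66.9 and 64.3 in WT and 148 and 145 in HSF1-pLVX cells, 2.23-fold higher (log2 1.16 ± 0.08 SE, adjusted p = 2.66e-08).

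The 6 cathepsins, the main lysosomal proteases, did not move as a group. CTSB, a cysteine protease, fell from 1164 and 1146 CPM to 649.9 and 646 CPM, 1.78-fold lower (log2 -0.83 ± 0.10 SE, adjusted p = 3.48e-06). CTSC, the dipeptidyl peptidase that activates granule serine proteases in immune cells, was at 212 and 231 CPM in WT and at 402 and 459.8 CPM in HSF1-pLVX cells, 1.94-fold higher (log2 0.96 ± 0.10 SE, adjusted p = 1.09e-06). Neither gene shares counted bases with another gene, and in each the 2 variants were clearly separated. Without WT replicate 2 or HSF1 replicate 1 CTSC also passed the 2-fold limit, which brought the number of genes at least 2-fold higher from 1 to 2. CTSA, the protective protein of neuraminidase and galactosidase, and CTSZ were lower, with log2 fold changes of -0.51 (adjusted p = 0.000138) and -0.34 (adjusted p = 0.00503), and CTSZ missed the threshold without HSF1 replicate 2 (adjusted p = 0.0945). CTSD, the main aspartic protease, at 655 and 557 CPM in WT and 622 and 683 CPM in HSF1-pLVX cells, overlapped between the variants and was not called (log2 0.11 ± 0.11 SE, adjusted p = 0.395). A same-strand readthrough gene shares 41.7% of the counted bases of CTSD, so its count is uncertain. CTSA shares 28.5% of its counted bases with genes on the opposite strand. CTSL, which has pseudogenes of similar sequence, was not called either (log2 0.08, adjusted p = 0.408).

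Among the glycosidases, which trim sugars from glycoproteins, glycolipids and glycogen, 3 of 7 tested genes were lower, 2 higher and 2 not called. These shares, 42.9% lower and 28.6% higher, stand beside 33.2% and 32.7% of all genes tested. FUCA1, the lysosomal fucosidase, was at 10.4 and 10.01 CPM in WT and at 6.17 and 7.25 CPM in HSF1-pLVX cells (log2 -0.61 ± 0.15 SE, adjusted p = 0.00231). HEXA, the alpha subunit of the hexosaminidase that degrades GM2 ganglioside, rose from 26.7 and 26.1 CPM to 36.1 and 43.2 CPM (log2 0.58 ± 0.10 SE, adjusted p = 0.000176). For both genes the libraries of the variants did not overlap, as for 83.1% of all genes tested. HEXA shares 16.3% of its counted bases with other genes. FUCA2, a secreted fucosidase, was lower by -0.36 on the log2 scale (adjusted p = 0.00149), and 16.9% of its counted bases are shared with genes on the opposite strand. GUSB, the glucuronidase, was higher by 0.33 (adjusted p = 0.00364), a value that missed the threshold without HSF1 replicate 2 (adjusted p = 0.0600) and that near-identical pseudogenes of GUSB make uncertain. GAA, the glycogen-degrading glucosidase whose promoter holds 2 full palindromes, was lower by -0.26 (adjusted p = 0.0300). That call was lost without WT replicate 1 (adjusted p = 0.162), HSF1 replicate 1 (0.304) or HSF1 replicate 2 (0.0539). GLA and MANBA were not called, at -0.14 (adjusted p = 0.298) and 0.17 (adjusted p = 0.136). The alternate contigs of the reference carry 6 copies of NEU1, the sialidase, and NEU1 had 0 counts in all 4 libraries. Its 10 nearest genes, in the major histocompatibility region, had at most 1 count, so this 0 says nothing about expression.

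All 4 lysosomal membrane proteins of the list were down-regulated (median -0.67 on the log2 scale), where 33.2% of all genes tested were lower. MCOLN1 (chr19:7522626-7534009, plus strand), the TRPML1 channel that releases calcium from lysosomes, was at 51.6 and 47.7 CPM in WT and at 16.5 and 17.7 CPM in HSF1-pLVX cells, 2.91-fold lower (log2 -1.54 ± 0.10 SE, adjusted p = 5.13e-09). NPC1, which exports cholesterol through the lysosomal membrane, was at 141 and 131 CPM against 84.5 and 77.9 CPM, 1.68-fold lower (log2 -0.74 ± 0.09 SE, adjusted p = 3.75e-06). LAMP2, whose LAMP2A form is the receptor of chaperone-mediated autophagy, fell from 207 and 219.6 CPM to 141 CPM in each HSF1-pLVX library, 1.51-fold lower (log2 -0.60 ± 0.09 SE, adjusted p = 3.08e-05). The variants did not overlap for any of these genes, nor for 83.1% of all genes tested. LAMP1 was at 444 and 418 CPM in WT and at 320.1 and 333 CPM in HSF1-pLVX cells (log2 -0.40 ± 0.09 SE, adjusted p = 0.00152). The counts are per gene and do not separate the LAMP2 isoforms.

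The soluble lipid-handling proteins did not pass the test in either direction. NPC2, which hands cholesterol to NPC1 inside the lysosome, was at 134 and 133 CPM in WT and slightly above them at 138 CPM in each HSF1-pLVX library (log2 0.05 ± 0.08 SE, adjusted p = 0.609). PSAP was at 1098 and 1038 CPM in WT and 1213 and 1303 CPM in HSF1-pLVX cells (log2 0.24 ± 0.10 SE, adjusted p = 0.0553), with the HSF1-pLVX libraries above the WT ones. PSAP was close to the threshold, and it passed with a stricter count filter (adjusted p = 0.0412) and with scaling by library size only (adjusted p = 0.0102).

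TFEB, the master regulator in the list, was at 23.4 and 23.3 CPM in WT and 22.6 and 25.5 CPM in HSF1-pLVX cells. The values overlapped, and the transcript was not called (log2 0.04 ± 0.10 SE, adjusted p = 0.738). The factors of its family differed from it. MITF fell from 23.1 and 22.1 CPM to 1.55 and 1.66 CPM (log2 -3.81 ± 0.16 SE, adjusted p = 7.94e-11), and TFE3 from 104 and 108 CPM to 55.2 and 55.1 CPM (log2 -0.94 ± 0.08 SE, adjusted p = 1.66e-07). TFEC had 0 counts. Per kilobase, TFE3 was the most abundant in both variants, at 24.8 ± 0.710 in WT and 12.9 ± 0.0146 in HSF1-pLVX cells, beside TFEB at 4.13 ± 0.0103 and 4.26 ± 0.363. The sum of the 4 transcripts was 32.1 ± 0.607 CPM per kilobase in WT and 17.4 ± 0.359 after HSF1 overexpression (SD, n = 2 for either variant). The family was put together after its values were seen, and no transcript level speaks for the phosphorylation or location of these proteins.

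**Figure D3:**
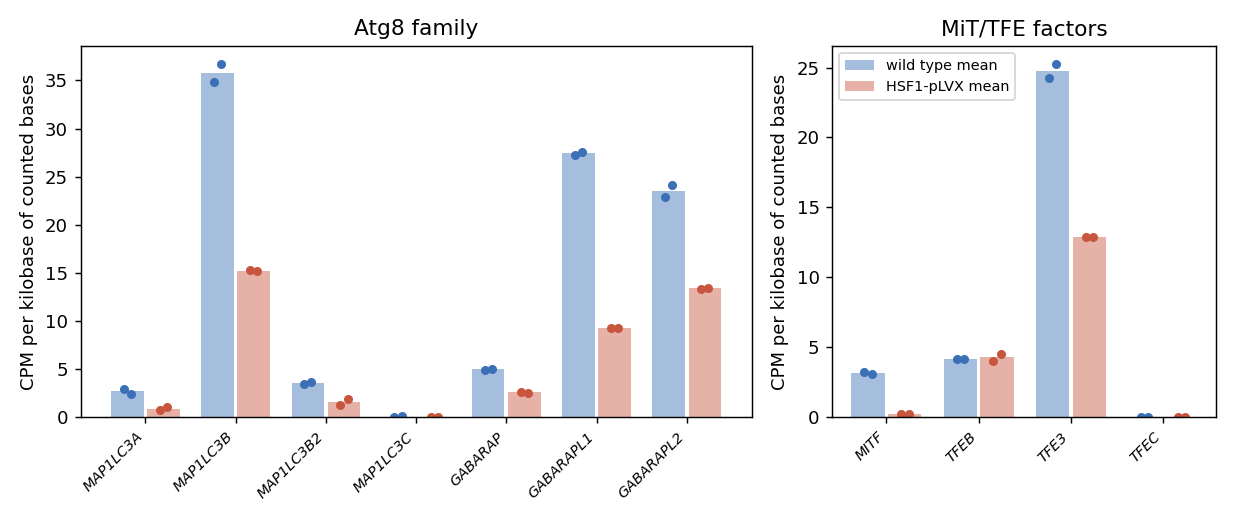
Levels of the Atg8 family (left) and of the MiT/TFE transcription factors (right) in CPM per kilobase of counted bases, with bars for the mean of 2 libraries and points for the single libraries, blue for WT and red for HSF1-pLVX. MAP1LC3B, GABARAPL1 and GABARAPL2 make up most of the Atg8 transcripts in both variants and are lower in HSF1-pLVX cells, while TFEB lies near 4 CPM per kilobase in both.

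Of the 12 tested autophagy genes, 8 were down-regulated and 2 up-regulated, a count of 2 that became 0 under DESeq2's Wald test and limma, 1 without either WT library and 0 without either HSF1-pLVX library. The lower genes were 66.7% of the 12 and the higher ones 16.7%, beside 33.2% and 32.7% of all genes tested. The median of the 12 was -0.41 on the log2 scale. All 4 genes of initiation were lower. WIPI1 (chr17:68420948-68457513, minus strand), which binds the phosphoinositide PI3P on the forming membrane, showed the largest change of the 34 tested genes, from 29.9 and 31.9 CPM in WT to 5.22 and 5.18 CPM in HSF1-pLVX cells. It was 5.94-fold lower (log2 -2.57 ± 0.12 SE, adjusted p = 2.63e-10). ARSG on the opposite strand shares 24.3% of the counted bases of WIPI1, with 39 and 44 counts of its own in WT and 20 and 15 in HSF1-pLVX libraries, against 562 and 593 and then 131 and 103 counts for WIPI1. The kinase ULK1 was lower by -0.48 on the log2 scale (adjusted p = 0.000125) and BECN1, which encodes Beclin 1, by -0.41 (adjusted p = 0.000549), and BECN1 shares 17.1% of its counted bases with other genes. UVRAG, a partner of Beclin 1, was lower by -0.26 (adjusted p = 0.0285), and that call was lost without WT replicate 1 (adjusted p = 0.130) and without HSF1 replicate 2 (adjusted p = 0.179).

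Both Atg8 genes of the list were down-regulated by more than 2-fold. GABARAPL1 (chr12:10212458-10223130, plus strand) was at 111 and 113 CPM in WT and at 37.7 and 37.9 CPM in HSF1-pLVX cells, 2.97-fold lower (log2 -1.57 ± 0.08 SE, adjusted p = 9.15e-10). MAP1LC3B (chr16:87383995-87404779, plus strand), the LC3 gene whose protein is the common marker of autophagosomes, was at 185 and 195 CPM against 81.5 and 80.4 CPM, 2.35-fold lower (log2 -1.23 ± 0.09 SE, adjusted p = 1.7e-08). In both genes the replicates lay close together. MAP1LC3B2 is a near-identical copy of MAP1LC3B, and reads can be split between them. It was lower too (log2 -1.21, adjusted p = 0.000263), but its counts may be reads of MAP1LC3B, so the 2 values are not independent. The other members of the family with enough counts were also lower, MAP1LC3A by -1.60, GABARAP by -0.95 and GABARAPL2 by -0.81 on the log2 scale. GABARAP shares 55.7% of its counted bases with other genes, 30.5% on the same strand, so its count is uncertain. Summed over the 7 family genes, the Atg8 transcripts were at 98.0 ± 2.27 CPM per kilobase in WT and 42.9 ± 0.611 after HSF1 overexpression (SD, n = 2 for either variant), a sum formed after the values were seen.

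Of the 3 tested conjugation genes of the list, 2 were called higher and 0 lower by edgeR, and none passed an unadjusted p of 0.05 in the lower direction. ATG5 was at 34.6 and 37.4 CPM in WT and 44.6 and 41.3 CPM in HSF1-pLVX cells (log2 0.26 ± 0.09 SE, adjusted p = 0.0228), and ATG7, the E1-like enzyme, at 24.8 and 20.0 CPM against 27.0 and 27.7 CPM (log2 0.29 ± 0.11 SE, adjusted p = 0.0348). These small increases depended on single libraries and on the test, with adjusted p of 0.181 (ATG5) and 0.237 (ATG7) under DESeq2's Wald test and 0.0578 and 0.116 under limma on the deposited values. ATG5 missed the threshold without WT replicate 1 (adjusted p = 0.0923), HSF1 replicate 1 (0.156) or HSF1 replicate 2 (0.0589), and ATG7 without WT replicate 2 (0.343), HSF1 replicate 1 (0.0697) or HSF1 replicate 2 (0.235). VGLL4 on the opposite strand shares 18.1% of the counted bases of ATG7. ATG12, the ubiquitin-like protein joined to ATG5, was not called (log2 -0.08, adjusted p = 0.527). ATG16L1, the partner of the ATG12-ATG5 conjugate, had 0 to 2 counts per library and was not tested, and a copy on an alternate contig of the reference has the same exon structure over 100% of its intervals, so its low count is not read as a low level.

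Of the cargo receptors, OPTN and NBR1 were down-regulated. OPTN, a receptor for damaged mitochondria and bacteria, fell from 353 and 349.6 CPM to 189.8 and 197 CPM, 1.82-fold lower (log2 -0.86 ± 0.09 SE, adjusted p = 9.49e-07). NBR1 was lower by -0.41 on the log2 scale (adjusted p = 0.000976), and without HSF1 replicate 2 its adjusted p was 0.0552. SQSTM1, the p62 receptor, was at 2.24 and 2.05 CPM in WT and at 1.31 and 2.67 CPM in HSF1-pLVX cells, from 33 to 53 counts per library (log2 -0.14 ± 0.32 SE, adjusted p = 0.730). The variants overlapped. No copy of SQSTM1 itself was found in the count table. Its flanking genes MGAT4B and MRNIP both have copies with 100% of their exon intervals on one contig outside the main chromosomes and held only 2 to 3 and 2 to 20 counts at their main positions, so the low count of SQSTM1 is not read as its expression.

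The remaining genes of both pathways, 184 outside the list of 36, were grouped by function, and 171 of them were tested. Of these, 107 were lower and 25 higher (all genes tested, 33.2% and 32.7%), with a median log2 fold change of -0.41. The vacuolar proton pump, which acidifies the lysosome, had 17 of 22 tested subunit and accessory genes lower and 1 higher, a median of -0.88, and 8 genes lower by at least 2-fold. ATP6V0A4, a membrane-sector subunit best known from kidney, fell from 17.6 and 14.3 CPM to 0.677 and 0.403 CPM (log2 -4.83 ± 0.24 SE, adjusted p = 4.5e-10). ATP6V1B1, another subunit of acid-secreting epithelia, had 1 and 2 counts in WT and 97 and 92 in HSF1-pLVX libraries, a ratio of 52.3 with an exact 95% counting interval of 17.6 to 256, and was the only one of the 22 called higher. Broadly expressed subunits such as ATP6V0E1 (log2 -1.35), ATP6AP1 (-1.37) and ATP6V1G1 (-1.26), which share no counted bases with another gene, were lower. Others fell less, such as ATP6V1A (-0.36) and ATP6V1B2 (-0.42). ATP6AP2 (-0.12, adjusted p = 0.211) and TCIRG1 (0.23, adjusted p = 0.0573) were not called.

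Of the other 35 tested lysosomal hydrolases 15 were lower (42.9%) and 10 higher (28.6%), with a median of -0.11. Over all genes tested 33.2% were lower and 32.7% higher, so this split was not far from that of all genes. SMPD1, the acid sphingomyelinase, fell from 97.4 and 88.7 CPM to 22.4 and 24.3 CPM (log2 -1.998 ± 0.09 SE, adjusted p = 2.61e-10), and ASAH1, the acid ceramidase, which acts after it, was lower by -1.74. SCPEP1, a serine carboxypeptidase, rose from 66.3 and 58.1 CPM to 179 and 208 CPM (log2 1.64 ± 0.10 SE, adjusted p = 5.25e-09). The proteases CTSV (1.39), CTSF (1.12) and CTSH (0.89) were also higher, whereas CTSS was lower (-0.78).

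Of 27 other lysosomal membrane proteins 15 were lower (55.6%) and 5 higher (18.5%), with a median of -0.31. The shares of all genes tested were 33.2% lower and 32.7% higher. SLC17A5, the sialic acid exporter, fell from 46.2 and 48.5 CPM to 10.6 and 9.36 CPM (log2 -2.24 ± 0.10 SE, adjusted p = 2.75e-10), and LAPTM5, a protein of blood cells, was higher at a low level, from 1.49 and 0.915 CPM to 4.18 and 7.15 CPM (log2 2.21 ± 0.32 SE, adjusted p = 2.5e-05). MCOLN2 and MCOLN3, the relatives of MCOLN1, were higher (log2 1.29 and 0.79) but did not exceed a mean of 3.85 CPM in either variant. Among 10 tested genes of enzyme sorting 5 were lower (50%, against 33.2% of all genes tested) and 1 higher (10%, against 32.7%), with a median of -0.15. SORT1, the sortilin receptor, fell from 148 and 140.4 CPM to 36.1 and 31.8 CPM (log2 -2.08 ± 0.09 SE, adjusted p = 1.88e-10), and IGF2R, the large mannose 6-phosphate receptor, was lower by -0.996, whereas the small receptor M6PR was not called (0.16, adjusted p = 0.142). CLN6 was higher (log2 0.70 ± 0.12 SE, adjusted p = 0.000129).

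The group of regulators holds the relatives of TFEB and genes around mTORC1. Of its 24 tested genes 17 were lower (70.8%, against 33.2% of all genes tested). Another 2 were higher (8.33%, against 32.7%), and the median was -0.48. The group mixes genes that promote mTORC1 with others that restrain it. Among the latter, TSC2 (log2 -0.35) and AKT1S1 (-0.50) were lower and TSC1 (0.165) was not called. Besides MITF and TFE3 the lower genes included RRAGC (log2 -0.95), RRAGD (-3.29, at a mean of 1.79 CPM in WT) and LAMTOR1 (-0.63), parts of the machinery that holds mTORC1 at the lysosome, and MTOR itself (-0.55). LAMTOR4, of the same machinery, was higher (log2 0.34, adjusted p = 0.00955), and shared bases make up 22.9% of the counted bases of RRAGC and 18.4% of those of LAMTOR4. MLST8, an mTOR partner, was higher, from 33.5 and 28.0 CPM to 44.6 and 47.7 CPM (log2 0.58 ± 0.10 SE, adjusted p = 0.000137).

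In the other autophagy groups most of the tested genes were called lower as well. Of all genes tested, 33.2% were lower and 32.7% higher. Of 18 other initiation genes 13 were lower and 1 higher (median -0.46). The lower ones include RUBCN (log2 -1.15), which restrains the Beclin 1 complex. ATG9B fell from 5.27 and 7.48 CPM to 2.27 and 2.16 CPM (log2 -1.52 ± 0.23 SE, adjusted p = 4.07e-05), and PIK3C3, the catalytic subunit of the Beclin 1 complex, was higher (log2 0.31 ± 0.09 SE, adjusted p = 0.00556), though not under DESeq2's Wald test (adjusted p = 0.0769). Of 11 further conjugation genes, Atg8 genes included, 6 were lower and 2 higher (median -0.48). ATG4A and ATG4D, proteases that process the Atg8 proteins, were lower (log2 -1.18 and -0.48), and ATG4B of the same family was higher (0.25). ATG16L2, a relative of ATG16L1, rose from 13.8 and 16.6 CPM to 70.6 and 71.9 CPM (log2 2.23 ± 0.10 SE, adjusted p = 2.41e-10), and MAP1LC3A was lower (log2 -1.60 ± 0.25 SE, adjusted p = 6.66e-05). Of 14 other receptors 10 were lower and 3 higher (median -0.50), with RETREG1, a receptor for endoplasmic reticulum, at 13.9 and 12.5 CPM in WT and 2.51 and 2.01 CPM in HSF1-pLVX cells (log2 -2.53 ± 0.18 SE, adjusted p = 1.46e-08). CALCOCO2, the NDP52 receptor, rose from 71.5 and 71.2 CPM to 108 and 119 CPM (log2 0.67 ± 0.09 SE, adjusted p = 9.63e-06). Of the 10 tested genes of autophagosome-lysosome fusion 9 were lower (median -0.42), led by VPS18, a tethering subunit (log2 -1.24 ± 0.10 SE, adjusted p = 4.94e-08). The remaining gene, VPS16, was not called (log2 0.22, unadjusted p = 0.0419, adjusted p = 0.0622).

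**Figure D4:**
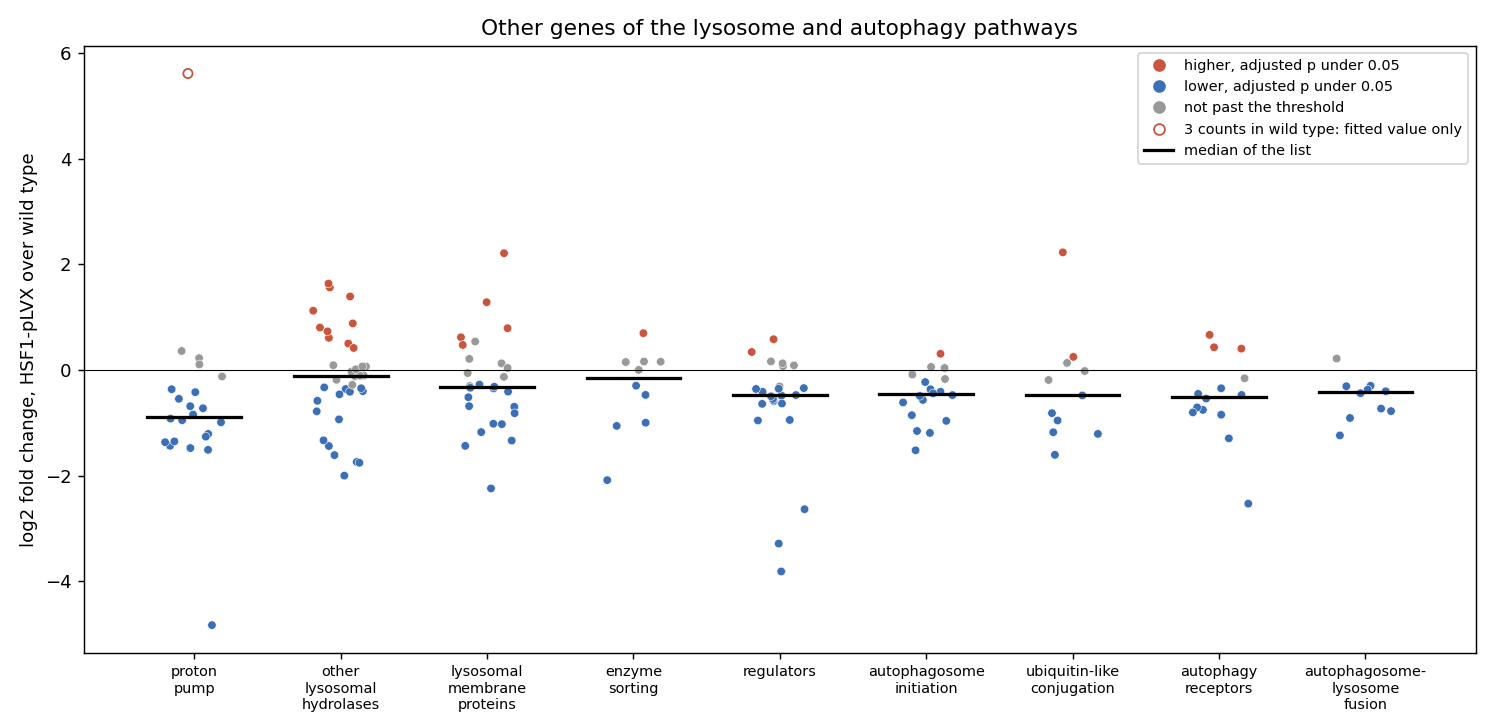
Log2 fold change (HSF1-pLVX over WT) of each tested gene in 9 groups of the lysosome and autophagy pathways outside the list of 36. Points are genes, coloured by call (red higher, blue lower, grey not past the adjusted p of 0.05), bars are group medians, and the open circle is ATP6V1B1, whose fitted value rests on 3 WT counts. The median lies below 0 in each group and is lowest for the proton pump at -0.88.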

How the data were processed

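RNA-seq libraries of MCF10A cells (2 WT, 2 HSF1-pLVX) were assigned to variants by their titles. The deposited count table holds unnormalised counts of each gene, which the authors obtained from paired-end reads of 76 bp aligned to hg38 with HISAT2 2.0.5, processed with SAMtools 1.13 and counted with featureCounts 1.6.5 on GENCODE release 26, without a stated strand or multi-mapping setting. Reads that fit a main chromosome and an alternate contig equally may therefore be missing from a gene. The authors' second deposited table holds log2-like values from DESeq2 1.32.0, which a blind variance-stabilising transformation of the counts gave to within 5.80e-05 for the 36 genes. These served only as an alternative. Its columns of ratios between libraries were not used.

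The comparison used edgeR 4.0.16 under R 4.3.3, on counts as deposited (TMM factors 0.963 to 1.04, filterByExpr by variant, quasi-likelihood test, no replicate block, Benjamini-Hochberg adjustment over 15830 genes, threshold 0.05). Levels between genes were CPM divided by kilobases of counted bases. Shared bases and copies on alternate contigs (at least 70% of exon intervals of equal length) were found in the count table's gene models. On simulated counts for this comparison the test recovered 69.5% of 1.5-fold, 93.5% of 2-fold and 99.5% of 4-fold changes (200 changed genes each, of 15402, 15370 and 15376 genes). Of the genes called there, 6.08%, 3.61% and 2.45% were false. Every simulated gene was given the same spread, and far fewer genes changed than were called in the data. Replicates of a variant differed beyond sampling noise (chi-square per degree of freedom of 6.62 for WT and 8.04 for HSF1-pLVX).

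The members and lists were chosen with earlier results of these data known. Values per library were given for each member called beyond a log2 fold change of 0.58 and for TFEB, MCOLN1, SQSTM1 and MAP1LC3B, and from each other list for the called gene with the largest change in each direction at a mean of at least 1 CPM in the higher variant. Other genes named with values (PSAP, CTSD, NPC2, LAMP1, ATG5, ATG7, TFE3 and the examples from the lists) were added after their values were seen. Alternatives were other scalings, filters, tests and thresholds, a replicate block, and leaving out each library.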

Additional observations from a re-analysis of the deposited data

How the results depend on the processing

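With all 4 libraries kept, the 5 genes lower by at least 2-fold numbered 5 under every alternative tried, and lysosomal genes were called 4 to 5 higher and 10 to 11 lower, autophagy genes 7 to 8 lower. Over the 34 tested genes and these alternatives, 226 values kept their direction and side of the threshold, 2 newly passed (PSAP) and 9 missed it (GAA, UVRAG, ATG5, ATG7). Autophagy genes called higher numbered 0, not 2, under DESeq2's Wald test, limma on the deposited values and an adjusted p of 0.01, and genes at least 2-fold higher numbered 2 with scaling by library size only. Over these alternatives the adjusted p ranged from 0.0193 to 0.0766 for GAA, 0.0230 to 0.129 for UVRAG, 0.0110 to 0.181 for ATG5, 0.0182 to 0.237 for ATG7 and 0.0102 to 0.196 for PSAP. All genes called were 3735 higher and 4387 lower under DESeq2, against 5175 and 5253. Of the genes named from the other groups, PIK3C3 missed the threshold under DESeq2 (adjusted p = 0.0769, range from 0.00256). When 1 library was left out, 14 values of the 34 genes missed the threshold, autophagy genes numbered 0 to 1 higher and 6 to 8 lower, lysosomal genes 3 to 4 higher and 9 to 11 lower, genes at least 2-fold higher 1 to 2 and at least 2-fold lower 5, and 4 uncalled values changed sign, namely CTSD (-0.0059, range up to 0.25) and ATG12 (0.093, range down to -0.21) without WT replicate 2, SQSTM1 (0.32, range down to -0.69) without HSF1 replicate 1 and TFEB (-0.036, range up to 0.13) without HSF1 replicate 2. The cause was not tested. With the replicate number as a block, lysosomal genes numbered 4 higher and 11 lower, autophagy genes 2 higher and 8 lower, and all genes 5138 higher and 5171 lower, so no count moved by over 1.5 times. The numbers gave no sign of pairing (correlation of same-numbered deviations 0.000143), and the blocked fit had 1 residual degree of freedom. With 2 libraries per variant, a 1.5-fold change may be missed. The simulated test recovered 69.5% of such changes, but only 200 genes were changed in it, whereas 65.9% of the tested genes were called here. That share is therefore not the recovery in these data. SQSTM1, NEU1 and ATG16L1 cannot be assessed from these counts.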
